A study of Mus musculus with 16 samples.

Results

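Genes of the proteasome, the large protease that degrades ubiquitin-tagged proteins, were followed in mouse lung on Illumina bead arrays. The members were all probes whose annotated symbol starts with Psma, Psmb, Psmc, Psmd, Psme, Psmf or Psmg followed by a digit, with no use of their measured values. There were 67 such probes of 45 genes among 25697 probes of 16593 named genes. Of these, 58 probes of 42 genes were bright enough to be tested. The immunoproteasome genes Psmb8, Psmb9, Psmb10, Psme1 and Psme2 had 7 probes, all tested, and were set against the other 40 genes with 51 tested probes. The symbol rule also took in Psmc3ip, a factor of meiotic recombination, and Psme3ip1, which are named after proteasome genes and are not subunits.

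The proteasome consists of a barrel-shaped core and a cap at its ends. The outer rings of the core are built from alpha subunits (Psma genes) and the inner rings from beta subunits (Psmb genes), of which Psmb5, Psmb6 and Psmb7 carry the proteolytic sites. The cap holds a ring of ATPases (Psmc genes) that unfold and thread the substrate, and non-ATPase subunits (Psmd genes) that bind ubiquitin chains and remove them. Interferon gamma and haematopoietic identity favour the immunoproteasome, in which Psmb8, Psmb9 and Psmb10 take the places of Psmb5, Psmb6 and Psmb7, and the activator made of Psme1 and Psme2 docks on the core. This form is known for producing peptides that fit major histocompatibility complex (MHC) class I molecules.

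The 16 arrays each held RNA of 1 mouse, extracted from lung tissue, and every mouse was a C57BL/6N female. The 4 groups of 4 were untreated wild type and untreated Prdm11 knockout mice, both aged 22 weeks, and wild type and Prdm11 knockout mice challenged with ovalbumin (OVA), an egg-white allergen, both aged 35 weeks. Prdm11 encodes a member of the PRDM family of transcriptional regulators. The challenged mice had received 10 µg of OVA in 2 mg of alum intraperitoneally and then 3 exposures to an aerosol of 1% OVA for 30 min. Age and challenge cannot be told apart, and the labels do not say whether the untreated mice had been sensitised. The labels also give no detail of the knockout allele, and 0 probes carried the name Prdm11, so genotype rests on the labels.

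The sequences before the start sites of 6 member genes are printed, not all of them called with challenge. They are Psmb9 and its neighbour Psmb8, the standard catalytic genes Psmb6 and Psmb5 that these replace, and Psmd13 and Psmd4, whose levels rose in both genotypes. Each is the 250 bases before the start of transcription from RefSeq (GRCm38.p6), read 5′ to 3′ on the strand of the gene. Promoters were matched for 39 of the 45 member genes. Capitals mark matches to 3 motifs searched on both strands: TTCNNNGAA, the core of an interferon gamma activated site (GAS), GAAA followed after any 2 bases by GAAA, the core of an interferon-stimulated response element (ISRE), and TGACNNNGC, the core of the antioxidant response element (ARE) that is also bound by NFE2L1, an activator of proteasome genes. Matches to the GAS and ISRE cores can share bases, but no sequence shown here held more than 1 match. Psmb8 lies at chr17:34197945-34198194 on the plus strand, Psmb9 at chr17:34187331-34187580 on the minus strand, Psmb5 at chr14:54617996-54618245 on the minus strand, Psmb6 at chr11:70525107-70525356 on the plus strand, Psmd13 at chr7:140882144-140882393 on the plus strand and Psmd4 at chr3:95042615-95042864 on the minus strand.
Psmb9: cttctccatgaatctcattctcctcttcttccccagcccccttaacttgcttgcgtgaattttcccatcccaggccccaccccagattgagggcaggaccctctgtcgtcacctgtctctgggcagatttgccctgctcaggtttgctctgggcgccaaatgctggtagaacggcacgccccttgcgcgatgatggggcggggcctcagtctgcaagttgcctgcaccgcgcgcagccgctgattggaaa
Psmb8: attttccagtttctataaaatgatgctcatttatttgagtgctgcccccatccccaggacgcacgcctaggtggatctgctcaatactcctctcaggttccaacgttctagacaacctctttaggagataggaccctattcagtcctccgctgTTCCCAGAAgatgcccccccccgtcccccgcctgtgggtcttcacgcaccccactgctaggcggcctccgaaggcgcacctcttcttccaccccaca
Psmb6: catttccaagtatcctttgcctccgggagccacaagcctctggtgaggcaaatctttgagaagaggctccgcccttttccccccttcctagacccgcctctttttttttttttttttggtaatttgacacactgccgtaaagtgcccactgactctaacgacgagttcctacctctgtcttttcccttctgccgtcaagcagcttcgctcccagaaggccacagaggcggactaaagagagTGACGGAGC
Psmb5: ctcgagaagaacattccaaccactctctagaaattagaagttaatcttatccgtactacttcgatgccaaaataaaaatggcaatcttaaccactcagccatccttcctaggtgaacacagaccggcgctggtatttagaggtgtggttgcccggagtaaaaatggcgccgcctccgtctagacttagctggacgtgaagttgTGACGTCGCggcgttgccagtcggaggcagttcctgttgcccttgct
Psmd13: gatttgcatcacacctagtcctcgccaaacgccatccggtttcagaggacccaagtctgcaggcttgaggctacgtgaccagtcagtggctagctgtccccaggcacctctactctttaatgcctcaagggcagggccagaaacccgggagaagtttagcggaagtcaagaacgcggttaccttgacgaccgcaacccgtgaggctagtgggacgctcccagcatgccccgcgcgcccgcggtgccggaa
Psmd4: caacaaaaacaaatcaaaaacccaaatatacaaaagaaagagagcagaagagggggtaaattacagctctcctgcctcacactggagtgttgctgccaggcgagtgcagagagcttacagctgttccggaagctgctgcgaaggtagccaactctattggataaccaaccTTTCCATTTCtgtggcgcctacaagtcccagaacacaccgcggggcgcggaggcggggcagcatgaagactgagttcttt
Psmb8 held a GAS core at positions -97 to -89 counted back from the start, Psmb5 an ARE core at -47 to -39, Psmb6 an ARE core at -9 to -1, and Psmd4 an ISRE core at -80 to -71. Psmb9 and Psmd13 held none of the 3 motifs in this window, nor did Psmb10, whose sequence is not printed. Over the 43 promoters of the matched member genes, some of which have several starts, 11.6% held an ARE core, against 10.2% of all 32851 promoters. The shares were 4.65% against 7.02% for the GAS core and 6.98% against 2.98% for the ISRE core. A match describes the letters of the window only. In the order of protein-coding genes on chromosome 17, Psmb9 is followed by Tap1, Psmb8 and Tap2, the Tap genes encoding the transporter that brings peptides to class I molecules.

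Median intensity per array was 85.4 to 86.5 and the highest value was 45825.5 on every array. Challenged wild type replicate 4 stood apart, since its log2 values correlated with those of any other array at 0.842 or less (lowest 0.676). Between the remaining 15 arrays every correlation was at least 0.877. It was the lowest of the 16 arrays for 30 of the 58 member probes (51.7%), against 29.4% of all tested probes, and the highest for 8 (13.8%), against 30.6%. On that array, 13 member probes lay more than 1 log2 unit below the untreated wild type mean and 5 more than 1 above it, whereas no other array had a member more than 1 below. It also split probes of the same gene: relative to the untreated wild type, the median range between probes over the 13 genes with several tested probes was 0.84 there and 0.08 to 0.28 on the other 15 arrays. The largest such range was 2.30, for Psmc5. The main counts and many of the values that involve the challenged wild type are therefore also given without this array. A value given without mention of this array includes it. The number of arrays limits the precision of all values.

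**Figure D1:**
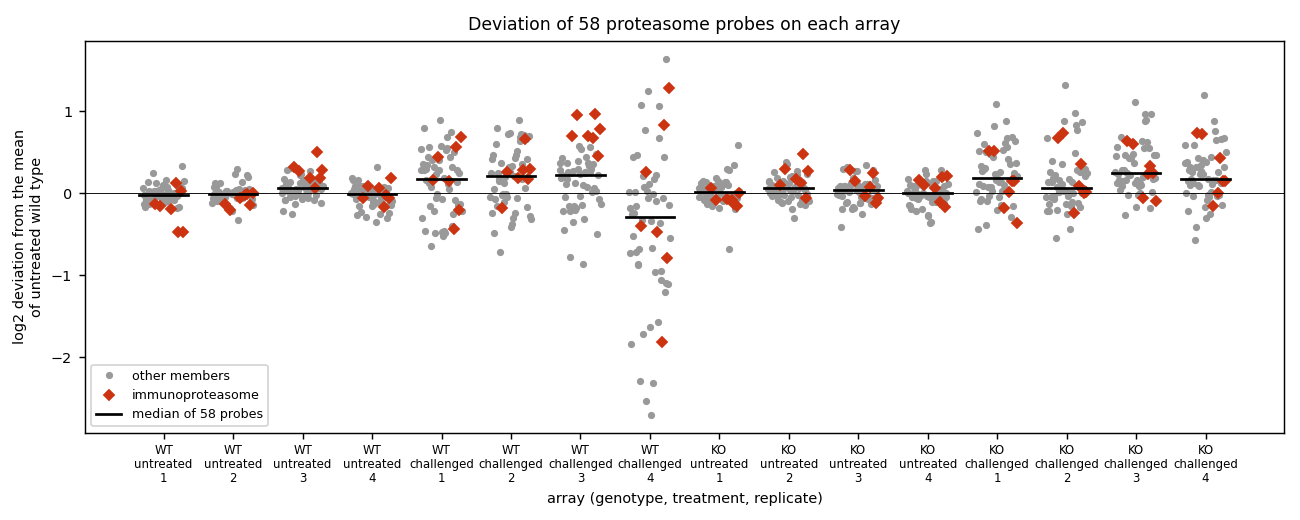
Log2 deviation of each of the 58 tested member probes from its untreated wild type mean (vertical axis) on each of the 16 arrays (horizontal axis), with immunoproteasome probes as diamonds, other members as dots and the median as a bar. Challenged wild type replicate 4 has the lowest median, -0.29, and the widest spread, from -2.71 to 1.64.

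The first comparison asked how proteasome genes differed between OVA-challenged and untreated lungs of the same genotype. With all 16 arrays, the core subunit Psmb1 and the cap subunits Psmd13 and Psmd4 rose by 1.54- to 1.97-fold in both genotypes. Psmb9 rose by 1.39- and 1.44-fold, and the core subunit Psma4 fell in both. In the wild type, 9 of the 58 member probes rose (15.5%, against 11.7% of all tested probes) and 3 fell (5.17%, against 17.7%), by limma at a Benjamini-Hochberg adjusted p under 0.05. The 12 called members made up 20.7%, below the 29.4% of all probes called. In the knockout, 8 rose (13.8%, against 9.1%) and 1 fell (1.72%, against 7.48%), 9 in all (15.5%, against 16.6%). The share of members called was thus near or below that of all probes in both genotypes, with more of the calls upward.

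The members leaned upward by small amounts. Their median log2 change was 0.09 in the wild type, where that of all probes was 0.03, and 0.18 in the knockout, where that of all probes was -0.05. In the knockout, 48 of the 58 probes (82.8%) had a positive change, against 42.8% of all probes. Without challenged wild type replicate 4, the wild type count was 21 higher and 4 lower (43.1%, against 29.5% of all probes) with a median of 0.20, and all 12 earlier calls held. The knockout count was then 19 higher and 1 lower (34.5%, against 30.5%), and all 9 earlier calls held. The knockout changes themselves do not use that array, which enters only through the spread shared by the 4 groups. The lowest counts with 1 array left out were 8 in the wild type, without untreated replicate 1, and 4 in the knockout, without challenged replicate 4. The shares of all probes in these fits are not given here. The 2 challenge comparisons share no mice.

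**Figure D2:**
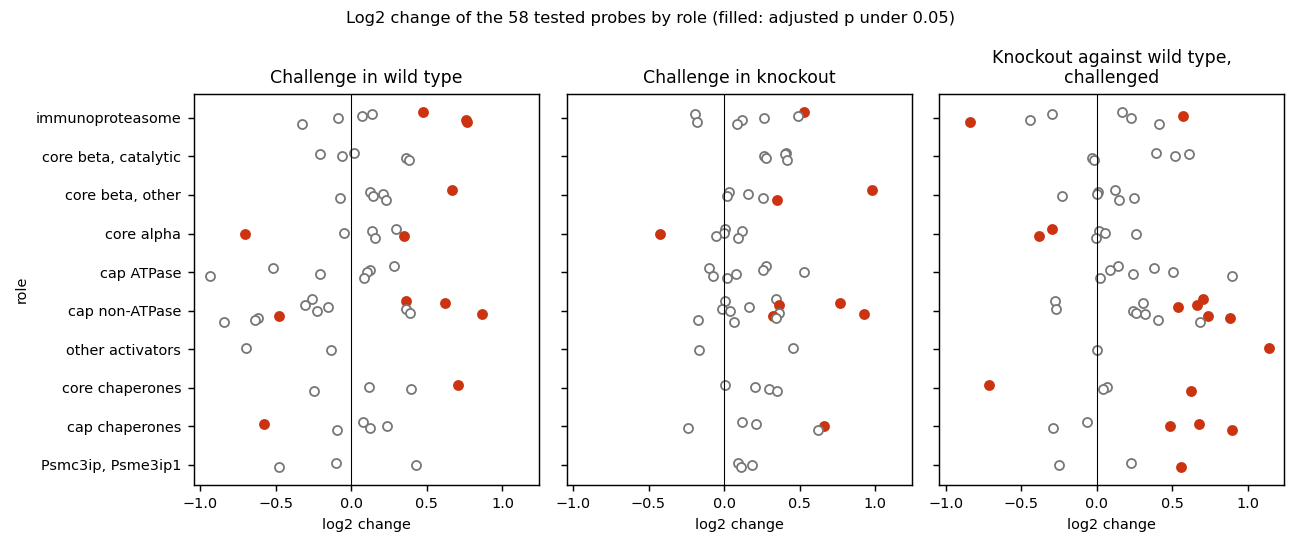
Log2 change (horizontal axis) of the 58 tested member probes grouped by role (vertical axis) for challenge in the wild type, challenge in the knockout, and knockout against wild type in challenged mice. Filled points passed the adjusted p of 0.05, and in both challenge panels the filled points lie mostly right of 0, with Psma4 to the left in each.

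Of the immunoproteasome genes, Psmb9 rose with challenge in both genotypes and Psmb10 rose in the wild type, while no probe of Psme1 or Psme2, which form the activator, passed the test. Psmb9 log2 intensity was 8.51, 8.47, 8.94 and 8.76 in the untreated wild type and 9.11, 8.93, 9.63 and 8.92 in the challenged wild type. In the knockout it was 8.58, 8.97, 8.81 and 8.77 without challenge and 9.19, 9.41, 9.27 and 9.39 with it. The knockout groups did not overlap, while untreated wild type replicate 3 reached above the 2 lowest challenged wild types. The change of Psmb9 was 0.48 ± 0.15 (SE) in the wild type (adjusted p = 0.0303) and 0.53 ± 0.15 in the knockout (adjusted p = 0.0270). The wild type call was lost without untreated replicate 1 or 2 or challenged replicate 3, where the adjusted p reached 0.0890. The knockout call was lost in 5 of the 16 fits that left out 1 array, with an adjusted p of up to 0.0817.

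Psmb10 had 2 probes, and both rose in the wild type, while neither passed the test in the knockout. On its main probe, the probe with the highest mean log2 intensity of the gene, values were 9.31, 9.78, 10.06 and 9.97 in the untreated and 10.47, 10.07, 10.57 and 11.07 in the challenged wild type. The knockout values were 9.78, 10.04, 9.72 and 9.99 without challenge and 9.42, 9.79, 9.69 and 9.92 with it. The wild type groups narrowly did not overlap, and the knockout groups lay in the same range. The wild type change was 0.76 ± 0.20 (adjusted p = 0.0104) on this probe and 0.76 ± 0.18 (adjusted p = 0.00617) on the other. Without challenged wild type replicate 4 they were 0.59 (adjusted p = 0.0163) and 0.73 (adjusted p = 0.00722). The knockout changes were -0.18 (adjusted p = 0.588) and 0.12 (adjusted p = 0.699).

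Psmb8 was near the lower end of what could be measured. It lay above the 40th percentile of the array in 1 of 4 untreated wild type, 2 of 4 challenged wild type and all 8 knockout mice. Its values were 6.06, 6.06, 6.51 and 6.13 in the untreated and 6.35, 6.01, 6.89 and 5.79 in the challenged wild type, groups that overlapped fully. In the knockout they were 6.25, 6.29, 6.47 and 6.35 without challenge and 6.70, 6.86, 6.83 and 6.92 with it, with no overlap. The change was 0.07 ± 0.18 in the wild type (adjusted p = 0.777, or 0.23 with adjusted p = 0.312 without challenged replicate 4) and 0.49 ± 0.18 in the knockout (adjusted p = 0.0821, or 0.0212 without challenged wild type replicate 4).

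The activator genes gave no call. Psme1 on its main probe was 10.12, 10.25, 10.51 and 10.38 in the untreated and 10.46, 10.50, 11.01 and 9.84 in the challenged wild type, so the challenged mice lay on both sides of the untreated ones. Its change was 0.14 (adjusted p = 0.561), and 0.34 (adjusted p = 0.0578) without challenged replicate 4. In the knockout it was -0.19 (adjusted p = 0.515). Psme2 changed by -0.09 (adjusted p = 0.729) in the wild type, with the sign turned without challenged replicate 4 (0.14, adjusted p = 0.424), and 0.26 (adjusted p = 0.390) in the knockout, where its values of 6.97 to 7.08 without challenge and 7.15 to 7.38 with it did not overlap. Such p-values do not show that these genes kept their level. Over the 5 immunoproteasome genes on their main probes, the mean deviation from the untreated wild type was 0.27 ± 0.32 (SD, n = 4) in the challenged wild type and 0.24 ± 0.08 in the challenged knockout. The corresponding means over the other members were 0.02 ± 0.23 and 0.24 ± 0.06. Without replicate 4 of the challenged wild type, the means there were 0.37 ± 0.31 (SD, n = 3) over the immunoproteasome genes and 0.14 ± 0.04 over the other members. In the challenged wild type, replicate 3 had the highest value of Psmb8, Psmb9, Psme1 and Psme2, with a mean deviation of 0.72, and also the highest list means for leukocyte markers (9.27), T cell markers (8.38) and interferon gamma signalling genes (8.67). Macrophage and dendritic cell markers were highest in replicate 1 (10.61), and eosinophil markers (7.21) and the main probe of Psmb10 (11.07) in replicate 4. In the challenged knockout, replicate 3 had the highest leukocyte (9.37) and T cell (8.65) means, but replicate 4 had the highest mean deviation (0.32, against 0.27 in replicate 3). A link between these lists and the immunoproteasome genes was not tested.

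**Figure D3:**
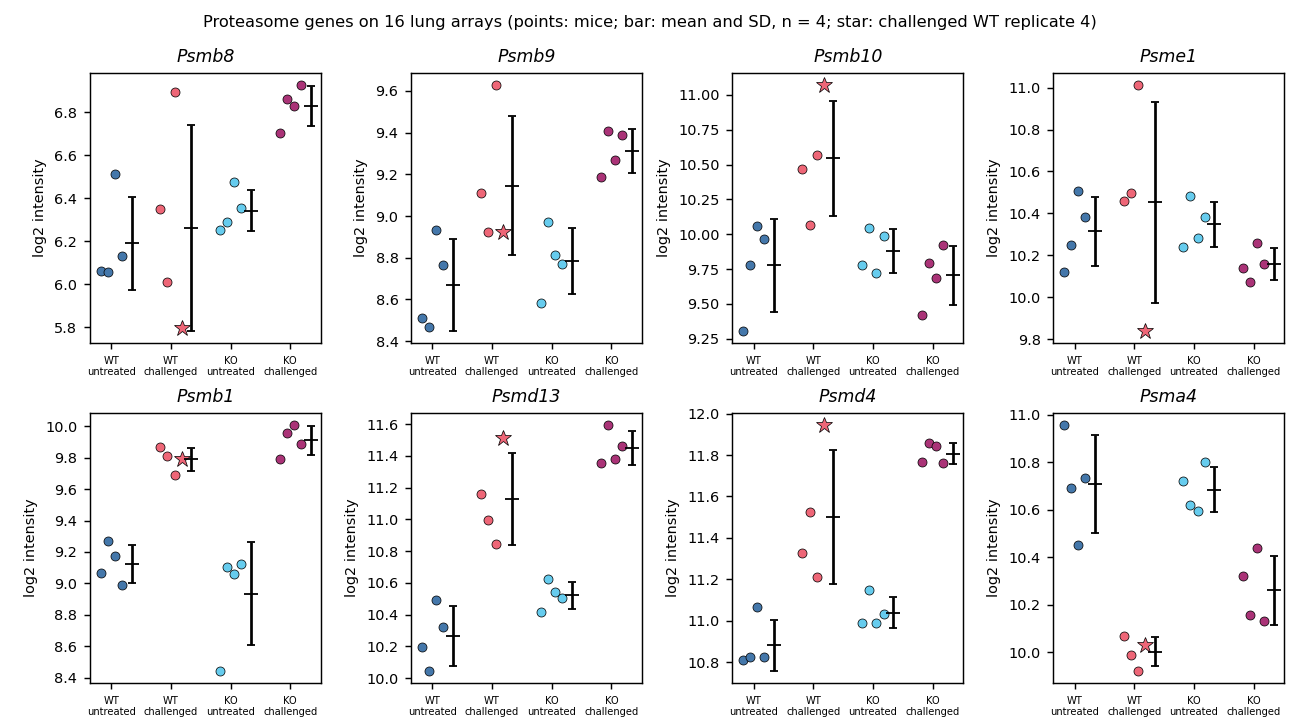
Log2 intensity (vertical axis) of 8 member genes on their main probes in the 4 groups (horizontal axis), each point 1 mouse, bars the mean and SD (n = 4), and the star challenged wild type replicate 4. Psmb1, Psmd13 and Psmd4 are higher and Psma4 is lower in every challenged than in every untreated mouse of the same genotype, whereas the challenged mice are higher without overlap in the wild type for Psmb10 and in the knockout for Psmb8 and Psmb9.

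The standard catalytic subunits that the immunoproteasome replaces did not pass the test in either genotype, although Psmb6 came close in both. Psmb6, the subunit with caspase-like activity, was 9.81, 10.02, 10.13 and 10.00 in the untreated and 10.50, 10.70, 10.35 and 9.93 in the challenged wild type. The knockouts read 9.91, 9.91, 9.86 and 10.04 without challenge and 10.35, 10.25, 10.54 and 10.25 with it. Only challenged wild type replicate 4 lay within the untreated range. Psmb6 changed by 0.38 ± 0.14 (adjusted p = 0.0505) in the wild type and 0.42 ± 0.14 (adjusted p = 0.0503) in the knockout, and by 0.53 (adjusted p = 0.00214) and 0.42 (adjusted p = 0.00518) without that array. Psmb7, the subunit with trypsin-like activity, gave 0.36 (adjusted p = 0.0893) and 0.28 (adjusted p = 0.258) on its main probe, the former being 0.54 (adjusted p = 0.00331) without that array. On challenged wild type replicate 4 its 3 probes read 8.54, 7.40 and 6.52, each below all other challenged wild types. Psmb5, the subunit with chymotrypsin-like activity, read 7.31, 8.16, 7.63 and 5.70 in the challenged wild type, a span wider than any of the other groups, and changed by -0.06 (adjusted p = 0.901) and 0.26 (adjusted p = 0.668). The sign of its wild type change turned without challenged replicate 4 (0.44, adjusted p = 0.0754). Without challenged wild type replicate 4, 4 of the 5 catalytic probes rose in the wild type (against 12.7% of all probes) and 3 of 5 in the knockout (against 14.5%).

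Each immunoproteasome subunit was set beside the one it replaces by the difference of their log2 changes. The change of Psmb9 exceeded that of Psmb6 by 0.10 in the wild type and 0.11 in the knockout. For Psmb8 against Psmb5 the differences were 0.14 and 0.22. The pair of Psmb10 and Psmb7 differed in sign between genotypes, with 0.40 in the wild type and -0.46 in the knockout. With challenged wild type replicate 4 left out, the wild type differences were 0.02 for Psmb9 and Psmb6, -0.21 for Psmb8 and Psmb5, a turned sign, and 0.05 for Psmb10 and Psmb7. The differences are given without a test.

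Among the remaining core subunits, Psmb1 rose and Psma4 fell in both genotypes. Psmb1, a beta subunit without a proteolytic site, was 9.07, 9.27, 9.18 and 8.99 in the untreated and 9.87, 9.81, 9.69 and 9.79 in the challenged wild type. The knockouts read 8.45, 9.11, 9.06 and 9.13 without challenge and 9.79, 9.95, 10.01 and 9.89 with it. No challenged mouse overlapped an untreated one. The change was 0.67 ± 0.13 (1.59-fold, adjusted p = 0.00243) in the wild type and 0.98 ± 0.13 (1.97-fold, adjusted p = 0.000213) in the knockout, and the 2 changes did not differ by the interaction test (0.31, adjusted p = 0.261). Psma4, an alpha subunit, was 10.96, 10.69, 10.45 and 10.73 in the untreated and 10.07, 9.99, 9.92 and 10.03 in the challenged wild type. In the knockout it went from 10.72, 10.62, 10.60 and 10.80 to 10.32, 10.16, 10.44 and 10.13. The groups did not overlap in either genotype. Psma4 fell by 0.70 ± 0.11 (0.61-fold, adjusted p = 0.000467) in the wild type and by 0.42 ± 0.11 (0.75-fold, adjusted p = 0.0156) in the knockout, the latter call being lost without untreated knockout replicate 4 or challenged knockout replicate 4 (adjusted p up to 0.0551).

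The other core genes moved less. Psma7, an alpha subunit, rose in the wild type on 1 of its 2 probes (0.35, adjusted p = 0.0293), the other giving 0.29 (adjusted p = 0.0576), and was at -0.06 and 0.01 in the knockout. The call was lost without untreated wild type replicate 1, 2 or 3 or challenged wild type replicate 1 or 2 (adjusted p up to 0.0793). Psmb2, a beta subunit, rose in the knockout on its main probe (0.35, adjusted p = 0.0208), with 0.23 (adjusted p = 0.0820) in the wild type and no overlap in either genotype. The call was lost without untreated knockout replicate 1 or challenged knockout replicate 1, 3 or 4 (adjusted p up to 0.0705). Its other 2 probes gave 0.25 and 0.02 in the knockout, neither called. Psma2, Psma3, Psma5, Psmb3 and Psmb4 had changes between -0.05 and 0.21 that did not pass the test in either genotype. With challenged wild type replicate 4 left out, Psmb3 (0.30, adjusted p = 0.0347) and the main probe of Psma7 (0.36, adjusted p = 0.0227) were called higher in the wild type. Psma1 and Psma6 had no probe bright enough to be tested.

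In the cap, Psmd13 and Psmd4 rose in every challenged mouse. Psmd13, a scaffold subunit of the cap, was 10.19, 10.05, 10.49 and 10.32 in the untreated and 11.16, 11.00, 10.84 and 11.51 in the challenged wild type. The knockout values were 10.42, 10.62, 10.54 and 10.50 without challenge and 11.35, 11.59, 11.38 and 11.46 with it. Its change was 0.86 ± 0.13 (1.82-fold, adjusted p = 0.000438) in the wild type and 0.93 ± 0.13 (1.90-fold, adjusted p = 0.000306) in the knockout. Psmd4, a receptor for ubiquitin chains, kept the same order. It was 10.81, 10.83, 11.06 and 10.82 in the untreated and 11.32, 11.52, 11.21 and 11.94 in the challenged wild type. In the knockout it was 10.99, 11.15, 10.99 and 11.03 without challenge and 11.77, 11.86, 11.85 and 11.76 with it. The change of Psmd4 was 0.62 ± 0.13 (1.54-fold, adjusted p = 0.00338) and 0.77 ± 0.13 (1.70-fold, adjusted p = 0.000916). Without challenged wild type replicate 4, the wild type changes were 0.74 (adjusted p = 0.000233) for Psmd13 and 0.47 (adjusted p = 0.00222) for Psmd4. The calls of Psmb1, Psmd13 and Psmd4 held in all 16 fits that left out 1 array, in both genotypes.

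Counting members called in both challenge comparisons on all 16 arrays, 4 of 58 were higher in both (Psmb1, Psmd13, Psmd4 and Psmb9, 6.9%, against 3.13% of all probes). Psma4 alone was lower in both (1.72%, against 4.48%). Without challenged wild type replicate 4 these calls held, and probes of Psmb6, Psmb7, Psmc4, Psmd8, Psmd10 and Psmg2 were also called higher in both. The share of all probes called in both without that array is not given here. Groups did not overlap, with the challenged mice higher, for 10 members in the wild type (17.2%, against 10.4% of all probes) and for 19 in the knockout (32.8%, against 14.7%). With the challenged mice lower, they did not overlap for 6 (10.3%, against 15.7%) and 1 (1.72%, against 18.6%).

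None of the 7 probes of the 6 cap ATPases Psmc1 to Psmc6 passed the test in either genotype. Their log2 changes ran from -0.94 to 0.28 in the wild type and from -0.10 to 0.53 in the knockout. The lowest was Psmc1, at 8.24, 8.39, 8.63 and 6.06 in the challenged wild type against 8.66, 9.01, 8.72 and 8.68 in the untreated. Replicate 4 lay more than 2 log2 units below the other challenged mice, and the change was -0.94 (adjusted p = 0.0729) with it and -0.35 (adjusted p = 0.0293) without it. Without that array Psmc4 rose in the wild type (0.38, adjusted p = 0.0136) and in the knockout (0.53, adjusted p = 0.000827).

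Other non-ATPase cap genes were called in 1 genotype or on some of their probes. Psmd7 gave 0.36 (adjusted p = 0.0304) in the wild type on 1 probe and -0.23 (adjusted p = 0.0928) on the other, so that its direction is not settled, and the call was lost without untreated replicate 1 or 4 or challenged replicate 1. Psmd8 changed by 0.39 (adjusted p = 0.0571) and 0.36 (adjusted p = 0.110), and passed the test in both genotypes without challenged wild type replicate 4 (0.51, adjusted p = 0.0092, and 0.36, adjusted p = 0.0350). Psmd1, the large scaffold subunit, and Psmd14, the enzyme that removes ubiquitin chains, changed in the wild type by -0.64 (adjusted p = 0.0539) and -0.84 (adjusted p = 0.0669), and neither was called. On challenged replicate 4 they read 6.23 and 6.20, and without it the changes were -0.31 (adjusted p = 0.0762) and -0.35 (adjusted p = 0.0715). Of the genes with several tested probes, 9 of 13 had probes of opposite sign in the wild type comparison and 5 of 13 in the knockout comparison. With challenged wild type replicate 4 left out, 2 of 13 had in the wild type comparison, Psmd6 and Psmd7.

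Assembly chaperones and the remaining activators gave few calls with all 16 arrays. Psmg2, a chaperone of core assembly, then gave none. Without challenged wild type replicate 4, 1 of its 2 probes was called higher in the wild type (0.55, adjusted p = 0.00142) and the knockout (0.30, adjusted p = 0.0350). Its other probe gave 0.02 (adjusted p = 0.927) and 0.35 (adjusted p = 0.0568). Psmd10, the cap chaperone also known as gankyrin, rose in the knockout on its main probe from 8.60, 8.38, 8.28 and 8.24 to 8.89, 9.08, 9.21 and 8.97, with no overlap (0.66, adjusted p = 0.0150). In the wild type the probe gave 0.24 (adjusted p = 0.301), and 0.44 (adjusted p = 0.0167) without challenged replicate 4. Psmg3, a chaperone of core assembly, was called higher in the wild type (0.71 ± 0.22, adjusted p = 0.0248), with values of 7.43, 7.65, 7.66 and 7.67 untreated and 7.88, 8.02, 8.08 and 9.25 challenged. Without replicate 4, the source of the value of 9.25, the change was 0.39 (adjusted p = 0.00953), and without untreated replicate 1 the call was lost (adjusted p = 0.0716). Psme3, a nuclear activator of the core, gave -0.13 and -0.17 with no call. Psme4, another activator, changed by -0.70 (adjusted p = 0.180) in the wild type and 0.45 (adjusted p = 0.483) in the knockout. With challenged wild type replicate 4 left out, Psme4 gave -0.08 (adjusted p = 0.561) in the wild type and its rise of 0.45 in the knockout was called (adjusted p = 0.00124). No probe of Psmc3ip or Psme3ip1 was called.

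The second comparison set knockout against wild type lungs. In untreated mice, 0 of 58 members differed by limma's adjusted p, and 0 had an unadjusted p under 0.05, where 3 of 17810 probes were called (0.0168%, with 0.00561% higher and 0.0112% lower in the knockout). Without challenged wild type replicate 4 the count was again 0, against 0.0225% of all probes. Log2 differences, knockout minus wild type, ran from -0.22 for Psmd14 to 0.28 for Psmd8. The groups did not overlap for 1 member, Psmg2, at 7.73, 7.79, 7.68 and 7.74 in the wild type and 7.87, 7.91, 7.82 and 7.89 in the knockout (1.72%, against 2.17% of all probes in that direction and 2.09% in the other). Its difference was 0.14, smaller than the changes with challenge given above.

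Among challenged mice, the cap subunit Psmd11 and the cap chaperone Psmd9 were higher and Psmb10 was lower in the knockout than in the wild type. In all, 12 members were higher (20.7%, against 21.1% of all probes) and 4 lower (6.9%, against 23.1%), and the 16 called were 27.6%, against 44.2% of all probes. The median log2 difference was 0.23 over the members and 0.00 over all probes. With challenged wild type replicate 4 left out that median was 0.02, and 13 members were higher and 7 lower (34.5%, against 41.2% of all probes), with 13 of the 16 calls held. The groups did not overlap for 10 members higher in the knockout (17.2%, against 15.8% of all probes) and 4 lower (6.9%, against 18.6%). These comparisons share the challenged groups with the challenge comparisons above, so their values are given side by side and not as separate evidence.

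Psmd11, a cap subunit that braces the junction of core and cap, differed by genotype in challenged mice and moved with challenge. On its main probe it was 7.21, 6.92, 7.14 and 6.97 in the untreated and 6.84, 6.75, 6.92 and 6.51 in the challenged wild type, and 7.09, 6.96, 6.99 and 7.17 in the untreated and 7.27, 7.31, 7.53 and 7.57 in the challenged knockout. On its second tested probe the challenged wild type lay at 6.46, 6.44, 6.48 and 6.40 and the challenged knockout at 7.25, 7.18, 7.07 and 7.20. On both probes all challenged knockouts lay above all challenged wild types. The difference in challenged mice was 0.66 ± 0.11 (adjusted p = 0.000746) on the main probe and 0.73 ± 0.10 (adjusted p = 0.000155) on the second. With challenge, the main probe changed by -0.30 (adjusted p = 0.0546) in the wild type and rose by 0.37 (adjusted p = 0.0377) in the knockout, while the second fell by 0.48 (adjusted p = 0.00225) and rose by 0.32 (adjusted p = 0.0300). The knockout rise was lost in 5 of 16 fits that left out 1 array on the main probe and in 6 of 16 on the second.

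Psmd9, a chaperone of cap assembly, showed the same order on its tested probe. It was 6.93, 6.74, 6.74 and 6.63 in the untreated and 6.30, 6.45, 5.89 and 6.09 in the challenged wild type, and 6.84, 6.72, 6.65 and 6.40 in the untreated and 6.89, 6.93, 6.88 and 6.73 in the challenged knockout. Only 2 of 4 challenged wild types lay above the 40th percentile of the array. Psmd9 fell by 0.58 ± 0.13 with challenge in the wild type (adjusted p = 0.00447), changed by 0.21 (adjusted p = 0.301) in the knockout, and was 0.68 ± 0.13 higher in the challenged knockout than in the challenged wild type (adjusted p = 0.00128).

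Psmb10 went the other way. On its main probe, the values of 9.42 to 9.92 in the challenged knockout lay below those of 10.07 to 11.07 in the challenged wild type, a difference of -0.84 ± 0.20 (adjusted p = 0.00417) and of -0.66 (adjusted p = 0.00627) without challenged wild type replicate 4. On the second probe the groups did not overlap either, and the difference was -0.44 (adjusted p = 0.0537). Both Psma7 probes were lower in the challenged knockout, with differences of -0.38 (adjusted p = 0.0129) and -0.30 (adjusted p = 0.0411), the latter lost in 8 of 16 fits that left out 1 array. Psmg3 differed by -0.71 (adjusted p = 0.0167), and by -0.40 (adjusted p = 0.00652) without challenged wild type replicate 4.

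Several of the remaining higher calls had smaller differences without challenged wild type replicate 4, and some of them lost the call. Psme4 was 9.44, 9.40, 9.26 and 6.91 in the challenged wild type and 9.89, 9.81, 10.07 and 9.79 in the challenged knockout. The groups did not overlap, and the difference was 1.14 ± 0.39 (adjusted p = 0.0288) with and 0.52 (adjusted p = 0.000751) without that array. The Psme4 call was lost without challenged knockout replicate 1 or 3 (adjusted p up to 0.0609). Psmd12, a cap subunit, gave 0.88 (adjusted p = 0.0140) and 0.70 (adjusted p = 0.00859) on its 2 probes with the array, and 0.51 (adjusted p = 0.00533) and 0.50 (adjusted p = 0.0122) without it. Psmd10 gave 0.89 (adjusted p = 0.0165) and 0.49 (adjusted p = 0.0332) on 2 of its 3 probes, which became 0.52 (adjusted p = 0.0129) and 0.29 (adjusted p = 0.0795). Its remaining probe gave -0.07 and was called lower without that array (-0.41, adjusted p = 0.0191), so the direction of Psmd10 is not settled. Psmb8 at 0.57 ± 0.18 (adjusted p = 0.0209) became 0.41 (adjusted p = 0.0508), and Psmg2 at 0.62 (adjusted p = 0.0308) on 1 of 2 probes became 0.35 (adjusted p = 0.0620). Psmc3ip moved from 0.56 (adjusted p = 0.0196) to 0.35 (adjusted p = 0.0359). Of these calls, Psmb8 was also lost when replicate 2 of the challenged wild type or replicate 4 of the challenged knockout was left out, Psmg2 without replicate 1 of the challenged wild type or replicate 1 or 3 of the challenged knockout, Psmd10 at 0.49 without challenged knockout replicate 2, 3 or 4, and Psmc3ip without challenged knockout replicate 1. Psmd6, a cap subunit, gave 0.54 (adjusted p = 0.00963) on 1 probe and -0.27 (adjusted p = 0.184) on the other, which was called lower (-0.48, adjusted p = 0.00315) without that array.

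Leaving out challenged wild type replicate 4 also brought calls that the full set of arrays did not give. Psme1 was then lower in the challenged knockout on its main probe (-0.50, adjusted p = 0.00648), with -0.08 (adjusted p = 0.724) on its other probe. Psmd13 and Psmd4, which had differed by 0.32 (adjusted p = 0.0641) and 0.31 (adjusted p = 0.0673), were then each 0.45 higher (adjusted p = 0.00562 and 0.00207).

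The third comparison tested whether challenge changed a member differently in the knockout and the wild type, as the knockout change minus the wild type change. This interaction was called for 4 of 58 members (6.9%, against 9.33% of all probes), 3 of them positive (against 5.67%) and 1 negative (against 3.67%). They were the 2 probes of Psmd11 (0.80 ± 0.14, adjusted p = 0.00771, and 0.67 ± 0.16, adjusted p = 0.0253), Psmd9 (0.79 ± 0.18, adjusted p = 0.0215) and the main probe of Psmb10 (-0.94 ± 0.28, adjusted p = 0.0463). The first Psmd11 value held in all 16 fits that left out 1 array. The second was lost in 5 of them, Psmd9 without untreated wild type replicate 1 or untreated knockout replicate 4, and Psmb10 in 12 of 16. The second Psmb10 probe gave -0.64 (adjusted p = 0.102). For Psmb9 the interaction was 0.05 ± 0.22 (adjusted p = 0.878), a difference small against its error. Without challenged wild type replicate 4, 8 members were called, among them all 4 of these (13.8%, against 15.3% of all probes), 5 positive (against 7.51%) and 3 negative (against 7.79%). The count was 1 without untreated wild type replicate 1 and 2 without each of untreated wild type replicate 3, untreated knockout replicates 2, 3 and 4 and challenged knockout replicate 4. The shares of all probes in these fits are not given here.

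Genes that work with the proteasome were described from lists chosen by function. Beside these counts and those of the cell type markers below stand the shares of all tested probes. With challenge, 11.7% rose and 17.7% fell in the wild type, and 9.1% rose and 7.48% fell in the knockout. Without challenged wild type replicate 4 these shares were 12.7% and 16.9%, and 14.5% and 16%. Of 15 tested cap-associated and substrate delivery genes, 2 rose and 4 fell with challenge in the wild type, and 0 rose and 1 fell in the knockout. These counts without challenged wild type replicate 4 were 3 and 2 in the wild type and 2 and 4 in the knockout. Pomp, the chaperone that matures the core, changed by 0.57 ± 0.11 (adjusted p = 0.00172) in the wild type and 0.25 (adjusted p = 0.144) in the knockout. Rad23b, which carries ubiquitylated proteins to the cap, fell by 1.00 ± 0.24 (adjusted p = 0.00704) and changed by -0.64 (adjusted p = 0.000226) without challenged wild type replicate 4. Nsfl1c, a cofactor of the unfoldase VCP, changed by -0.85 (adjusted p = 0.0393), and by -0.41 (adjusted p = 0.00579) without that array. Usp14, a cap-bound deubiquitinase, changed by -0.75 (adjusted p = 0.0294) and lost its call without that array (-0.52, adjusted p = 0.0622). In the knockout Zfand2a fell by 0.54 (adjusted p = 0.0112).

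Of 8 ubiquitin-activating and conjugating genes, 3 fell in the wild type, Ube2d3 (-0.58, adjusted p = 0.00343), Ube2l6 (-0.50, adjusted p = 0.0136) and Ube2n (-0.33, adjusted p = 0.0273). In the knockout 0 of 8 passed the test, which does not show that they kept their level. The list medians were -0.21 and -0.11. Of 8 regulators of proteasome genes, 4 fell in the wild type and 0 in the knockout, where 1 fell without challenged wild type replicate 4. The list median was -0.41 in the wild type (-0.26 without challenged wild type replicate 4) and -0.14 in the knockout. Nfe2l2, the antioxidant response factor, fell by 0.73 ± 0.15 (adjusted p = 0.00252) in the wild type and changed by -0.18 (adjusted p = 0.459) in the knockout. Bach1, which represses genes with the same element, fell by 0.99 (adjusted p = 0.0204, and -0.73, adjusted p = 0.0394, without challenged wild type replicate 4), and Mafg, a partner of both, fell by 0.79 (adjusted p = 0.0161, and -0.51, adjusted p = 0.0119). Nfe2l1, the factor that raises proteasome genes when proteasome activity falls short, changed by -0.26 (adjusted p = 0.0431) and 0.21 (adjusted p = 0.139), with an interaction of 0.48 (adjusted p = 0.0378). Maff, another small MAF factor, had an interaction of -0.71 (adjusted p = 0.0420).

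Of 15 genes for loading peptides on MHC class I, 6 rose and 2 fell in the wild type (5 and 2 without challenged wild type replicate 4), and 2 rose and 1 fell in the knockout (2 and 3). Tap1, which lies between Psmb9 and Psmb8, rose by 0.84 ± 0.20 (adjusted p = 0.0066) in the wild type and gave 0.29 (adjusted p = 0.367) in the knockout. Tap2, its partner on the far side of Psmb8, rose by 0.50 in each (adjusted p = 0.0236 and 0.0334). Without challenged wild type replicate 4, the wild type changes were 0.62 (adjusted p = 0.00635) for Tap1 and 0.37 (adjusted p = 0.0491) for Tap2. Tapbp, which bridges the transporter and class I molecules, rose by 1.09 (adjusted p = 0.0196) in the wild type, or 0.61 (adjusted p = 0.00121) without challenged replicate 4. Pdia3, a chaperone of the loading complex, fell by 1.03 (adjusted p = 0.00492) in the wild type, and changed by -0.73 (adjusted p = 0.00128) without that array. In the knockout the class I gene H2-K1 rose by 0.77 (adjusted p = 0.00244) and B2m, the light chain of class I, fell by 0.68 (adjusted p = 0.00194). In challenged mice, 1 of the 15 was higher and 7 were lower in the knockout than in the wild type, where 21.1% of all probes were higher and 23.1% lower. Without challenged wild type replicate 4, 1 was higher and 8 were lower, against 19.5% and 21.7% of all probes.

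Of 18 genes of interferon gamma signalling, 2 rose and 2 fell in the wild type, and 1 rose and 0 fell in the knockout (3 rose and 3 fell without challenged wild type replicate 4). The list medians were -0.09 and -0.11. In the wild type Ifngr1, a receptor chain, fell by 1.39 ± 0.29 (adjusted p = 0.00316, and -0.99, adjusted p = 0.000361, without challenged wild type replicate 4). The chemokine Cxcl9 rose by 0.92 (adjusted p = 0.0303, and 0.87, adjusted p = 0.0431, without that array). The interferon-inducible GTPase Irgm2 fell by 0.85 (adjusted p = 0.0255, and -0.57, adjusted p = 0.0480, without that array). Ifngr2, the other receptor chain, rose by 0.74 (adjusted p = 0.00733) in the knockout. Irf1, a factor that induces immunoproteasome genes, gave -0.15 (adjusted p = 0.378) and -0.09 (adjusted p = 0.683). Nlrc5, the class I transactivator, gave 0.03 (adjusted p = 0.918) and 0.23 (adjusted p = 0.505).

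The cell types in the samples also differed with challenge, and in whole tissue fewer cells of a type and less RNA per cell cannot be told apart. Of 15 leukocyte markers, all tested, 12 rose in the wild type (median 0.94) and 9 in the knockout (median 0.82). Mean log2 levels of that list were 7.99 to 8.15 and 7.96 to 8.19 in the untreated and 8.93 to 9.27 and 8.59 to 9.37 in the challenged wild type and knockout. Of 20 skeletal muscle markers, 14 rose in the wild type and all 20 in the knockout, with list means of 8.77 to 9.53 and 9.15 to 9.90 untreated and 9.18 to 11.69 and 11.12 to 11.94 challenged. Of 12 endothelial markers, 7 and 10 fell. Of 12 alveolar epithelial markers, 2 and 6 fell, while 1, Sftpd, rose in the knockout (by 1.20). The alveolar list, which checks the tissue, had means of 11.62 to 11.77 in untreated and 9.67 to 11.50 in challenged mice. T cell markers rose for 6 and 5 of 11, B and plasma cell markers for 2 and 5 of 9, macrophage and dendritic cell markers for 9 and 8 of 13, eosinophil markers for 3 and 1 of 4, cardiac muscle markers for 6 and 8 of 16 and fat markers for 1 and 3 of 8. The wild type counts, without challenged replicate 4, of B and plasma cell, eosinophil, cardiac and fat markers were 5, 1, 3 and 3, and that of skeletal muscle markers was 11. The part of these cell types in the proteasome values was not tested.

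Challenged wild type replicate 3 had a skeletal muscle mean of 9.18, within the range of untreated mice, and its values of 9.69 for Psmb1, 10.84 for Psmd13 and 11.21 for Psmd4 were the lowest of the 4 challenged wild types and above those of every untreated wild type (at most 9.27, 10.49 and 11.06). Its Psma4 value of 9.92 was the lowest of all 16 arrays. These values come from this mouse alone, and a link between the skeletal muscle list and these genes was not tested.

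**Figure D4:**
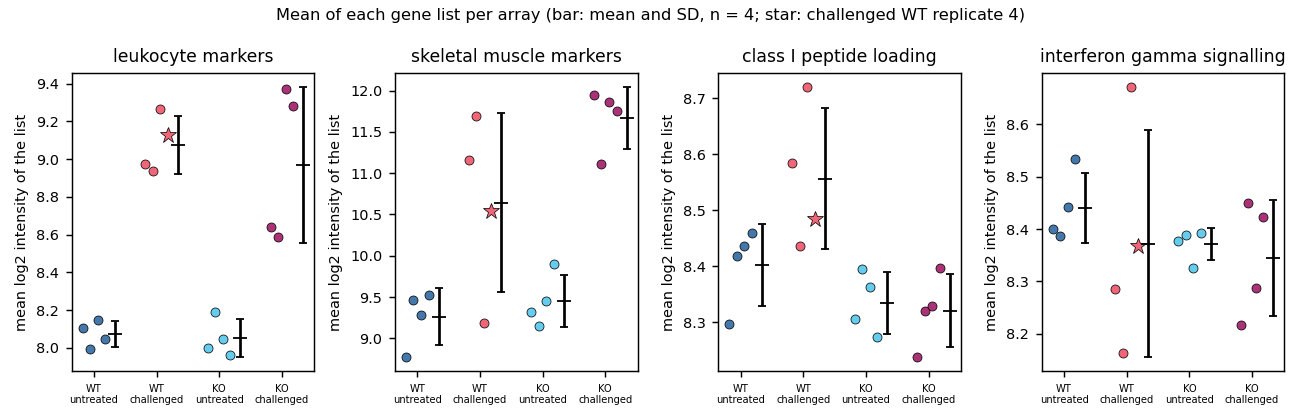
Mean log2 intensity of 4 gene lists (vertical axis) in the 4 groups (horizontal axis), each point 1 mouse, bars the mean and SD (n = 4), and the star challenged wild type replicate 4. Leukocyte markers are higher in every challenged mouse, skeletal muscle markers in all but challenged wild type replicate 3 (9.18), and the interferon gamma signalling list overlaps between all groups.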

How the data were processed

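The authors deposited 1 intensity per probe and array, not log-transformed, exported with GenomeStudio 2011.1 per the submitters' processing notes. Normalization and background correction are not given in the sources used here. Intensities of 0.1 to 45825.5 were set to at least 16 (this changed 1123 of 411152) before taking log2, which compresses the changes of dim probes. The platform annotation gave 1 symbol for 23978 probes, several for 0 and none for 1719. RefSeq (GRCm38.p6) held 23962 of them and changed 0 symbols.

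A probe was tested if it exceeded the array's 40th percentile (log2 6.24 to 6.25) on 4 or more arrays, which 17810 did. Untested were 9 member probes, those of Psma1 and Psma6, both of Psmd2, and 1 each of Psma3, Psmd5, Psmd9, Psmd11 and Psme4. Psma8, Psmb11, Psmd3, Psmf1 and Psmg4 were not analysed here. All 16 arrays entered limma 3.58.1 (lmFit and eBayes, R 4.3.3) with a mean per group. P-values were adjusted by Benjamini-Hochberg over all tested probes of a contrast, with a threshold of 0.05. The replicates are separate mice by the labels. The fit was tested on simulated data.

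Named members were the immunoproteasome genes and those they replace, the other activators, and the called members of each contrast, up to the 8 largest in each direction. Psma2, Psma3, Psma5, Psmb3, Psmb4, Psmc1, Psmc4, Psmd1, Psmd8, Psmd14, Pomp and the untreated values and challenge changes of Psmg2 were chosen after their values were seen. A gene with several probes was described by the one with the highest mean, and by the others where they differ. Other lists gave up to 3 called genes with the largest changes, plus Tap1, Irf1 and Nlrc5. The members, lists and tests were chosen with earlier results of these data known. Alternatives were a floor of 32, quantile normalization, median centring, no filter, a 60th percentile filter, eBayes with trend and robust, a single probe per gene, a fit to the compared groups alone, a replicate block and leaving out each array.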

Additional observations from a re-analysis of the deposited data

Results flagged for a closer look

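Within groups of 4 mice, 120 tests were run on 30 named probes. These were probes called in some comparison of all arrays, and the main probes of the immunoproteasome genes, those they replace, Psme3 and Psme4. Other uncalled probes, such as that of Psmc1 described above, were not tested, so the flags do not measure how often an array stood apart. The tests found 8 values far from the other 3 mice, not far above the 1 in 20 that chance alone gives. Of the 8, 2 were on challenged wild type replicate 4. These 2 were Psme4 at 6.91, against 9.26 to 9.44 in the other challenged wild types, and Psmg3 at 9.25, against 7.88 to 8.08. The other 6 lay in untreated mice. Psmb1 was 8.45 in untreated knockout replicate 1, against 9.06 to 9.13. Psmb8 was 6.51 in untreated wild type replicate 3, against 6.06 to 6.13, and Psmd4 was 11.06 in the same mouse, against 10.81 to 10.83. Psmd6 was 6.58 on 1 probe in untreated wild type replicate 1, against 6.11 to 6.17. Psmg3 was 7.43 in that mouse, against 7.65 to 7.67, and 7.41 in untreated knockout replicate 1, against 7.64 to 7.69.

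The challenge change differed between knockout and wild type, by the interaction test, for Psmb10 (-0.94), for the 2 probes of Psmd11 (0.67 and 0.80) and for Psmd9 (0.79).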

How the results depend on the processing

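No named member changed direction while called under any alternative. The member counts moved by over 1.5 times under several settings, among them several fits that left out 1 array. With a fit to the compared groups alone, 7 members were called for challenge in the wild type (12 in the fit of all arrays), 19 in the knockout (9) and 6 for genotype in challenged mice (16). With 1 probe per gene, 10 were called for genotype in challenged mice, by construction from fewer probes. Leaving out 1 array gave 8 to 25 for challenge in the wild type, 4 to 20 in the knockout, 13 to 21 for genotype in challenged mice, 1 to 8 for the interaction (4), and 0 to 0 for genotype in untreated mice. Without challenged wild type replicate 4, 30.5% of all probes were called for challenge in the knockout, against 16.6% with all arrays. For challenge in the wild type these shares were 29.5% and 29.4%. They were 41.2% and 44.2% for genotype in challenged mice and 15.3% and 9.33% for the interaction. Shares of all probes under the other settings are not given here, so counts under them are not read as results about the members. The highest counts of both challenge comparisons and of the interaction came without challenged wild type replicate 4, and the lowest came without untreated wild type replicate 1 for challenge in the wild type and the interaction and without challenged knockout replicate 4 for challenge in the knockout. The cause was not tested. Of the values of named members, 696 of those under other settings and 1245 of those with 1 array left out were stable. A stable value was either called in both fits with the same direction, or called in neither and moved by less than 1 standard error. Of the rest, 24 and 75 lost the threshold and 10 and 12 gained it. With 1 array left out, 12 values called in neither fit moved by at least 1 standard error of their change. The Psmb10 interaction was lost with no filter. Same-numbered mice showed no pairing: over 24 pairs of same-numbered samples, deviations from the group means correlated between -0.106 and 0.319, 6 over 0.1. With the replicate number as a block, 16, 7, 0, 17 and 4 members were called for challenge in the wild type and the knockout, genotype untreated and challenged, and the interaction. Intensities near the 40th percentile limit Psmb8, Psmd9 and Psmd6.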
